A study of Mus musculus with 21 samples.

Results

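Per1, Tsc22d3 and Pik3ip1 are 3 genes that glucocorticoids are known to induce in lymphoid cells, and their signal was followed over all 21 arrays of a series on mouse thymocytes. They were found by gene symbol in the authors' deposited tables of changed genes, and each had 1 probe set among the 28921 probe sets tested, of which 2117 carried a gene name. The probe sets were 10377439 for Per1 (NM_001159367), 10606989 for Tsc22d3 (NM_001077364) and 10373740 for Pik3ip1 (NM_178149). In GRCm38.p6, Per1 lies at chr11:69095108-69109965, Pik3ip1 at chr11:3319241-3342971 and Tsc22d3 at chrX:140539528-140600522. Each array held RNA from thymocytes sorted as CD4 CD8 double-positive, the stage where new T cell receptors meet their selecting ligands. All mice were of strain C57 Bl/6 and between 3 and 6 weeks old. Untreated groups were wild type (6 arrays, with numbers 1 to 3 and 4 to 6 kept apart), HDAC7 knockout (3 arrays), HDAC7-VP16 transgenic (3 arrays) and OT-2 TCR transgenic (3 arrays). The peptide OT-2 group (3 arrays) came from OT-2 TCR transgenic mice given the receptor's agonist peptide into the peritoneum 3 hours before harvest. The last group (3 arrays) had the same injection, and its title adds an HDAC7 deltaP transgene, although its genotype tag names the OT-2 receptor alone. No group was injected without peptide, so injection and receptor signal cannot be told apart by group. HDAC7 is a histone deacetylase that acts as a corepressor in thymocytes, VP16 is a viral activation domain, and the OT-2 receptor recognises an ovalbumin peptide on MHC class II. The sources used here give neither the promoter of each transgene nor the way HDAC7 was removed.

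Glucocorticoids, released in stress and made in the thymus as well, enter the cell and activate the glucocorticoid receptor, a transcription factor that binds AGAACA-type sites and kills double-positive thymocytes at high dose. Strong T cell receptor signals kill double-positive thymocytes too, in negative selection, and act through calcium, MAP kinase and PI3 kinase. Per1 encodes a repressor of the circadian clock and is also an immediate-early gene that cyclic AMP and glucocorticoids switch on. Tsc22d3 encodes GILZ, the glucocorticoid-induced leucine zipper protein, which binds and restrains NF-kappaB and AP-1 and is also a FoxO target. Pik3ip1 encodes a membrane protein that inhibits PI3 kinase, is lost from T cells on activation and is raised by FoxO factors.

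The RefSeq promoter table (GRCm38.p6) held 6 windows for these genes, 2 of Per1, 3 of Tsc22d3 and 1 of Pik3ip1, and 3 are shown because the genes were compared as glucocorticoid-responsive and moved together after injection. Each is the 250 bases before a transcript start, 5′ to 3′ on the gene's strand, with matches to the searched motifs in capitals. The Per1 window is chr11:69098699-69098948 (plus strand), the Tsc22d3 window chrX:140600523-140600772 (minus strand) and the Pik3ip1 window chr11:3330481-3330730 (plus strand). The Tsc22d3 window lies just outside the annotated gene, and the Per1 and Pik3ip1 windows lie inside the gene's span before a start further in; exons and introns were not resolved there.
Per1: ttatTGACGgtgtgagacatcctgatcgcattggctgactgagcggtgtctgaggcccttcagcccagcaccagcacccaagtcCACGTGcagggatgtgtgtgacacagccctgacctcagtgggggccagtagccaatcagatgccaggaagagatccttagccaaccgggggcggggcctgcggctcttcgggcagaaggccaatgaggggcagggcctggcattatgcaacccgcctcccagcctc
Tsc22d3: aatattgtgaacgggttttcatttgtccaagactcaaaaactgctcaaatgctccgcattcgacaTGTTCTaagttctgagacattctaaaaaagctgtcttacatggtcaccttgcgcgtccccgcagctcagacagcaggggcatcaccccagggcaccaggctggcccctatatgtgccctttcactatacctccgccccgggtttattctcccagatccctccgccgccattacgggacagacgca
Pik3ip1: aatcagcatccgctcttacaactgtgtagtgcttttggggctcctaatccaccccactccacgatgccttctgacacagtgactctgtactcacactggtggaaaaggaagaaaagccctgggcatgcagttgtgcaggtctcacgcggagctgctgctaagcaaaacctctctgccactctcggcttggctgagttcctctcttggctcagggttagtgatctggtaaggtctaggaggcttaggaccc
In the Per1 window the capitals mark TGACG, a partial CREB site, from -246 to -242 before the start, and the clock E-box CACGTG from -166 to -161. In the Tsc22d3 window they mark TGTTCT, the reverse complement of the glucocorticoid receptor half-site AGAACA, from -185 to -180. The Pik3ip1 window held no match. Motifs were searched on both strands in 32851 windows of equal length: AGAACA was in 16.1% of them, TGACG in 17.8% and CACGTG in 6.02%. Of the 6 windows of the 3 genes, 1 held AGAACA, 3 held TGACG (both of Per1 and 1 of Tsc22d3) and 1 held CACGTG. The sequence AGAACA followed after any 3 bases by TGTTCT was in 0.00913% of all windows and in 0 of the 6. The other motifs were in 0 of the 6 as well: TGACGTCA (CREB, which contains TGACG; 1.55% of windows), GTAAACA (FoxO, 3.17%), TGANTCA (AP-1, 6.75%), GCGTGGGCG (EGR, 0.536%) and AAAGGTCA (NR4A, 1.34%). A match or its lack describes these letters in these windows and nothing about a factor.

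The values are log2 RMA signals, the authors' normalised array signals, and they fell into 4 sets of columns that differ in number format and spread: wild type 1-3 with knockout and peptide OT-2, wild type 4-6 with VP16, OT-2 alone, and the deltaP arrays alone. Array medians ran from 6.01 to 6.26, and arrays of a group correlated at 0.987 to 0.997. The wild-type sets, of 1 genotype, differed at 56.9% of all probe sets. Such sets are crossed by the series' main injection comparison (peptide OT-2 against OT-2) and by each comparison with the deltaP arrays. OT-2 against wild type crosses them too, with either wild-type set. Hdac7 itself read 11.01 to 11.48 in wild type 1-3 and 10.94 to 10.98 in the knockout, 10.83 to 10.87 in wild type 4-6 and 11.19 to 11.35 in VP16. It read 10.60 to 10.68 in OT-2, 10.30 to 10.92 in peptide OT-2 and 10.20 to 10.56 on the arrays labelled deltaP. The knockout arrays thus lay below every wild type 1-3 array and above every wild type 4-6 array. The arrays labelled deltaP lay below every OT-2 array and overlapped peptide OT-2. Whether the Hdac7 probes lie in the part deleted or expressed was not tested. Of 10 double-positive thymocyte markers 5 were named. Cd4 (10.87 to 12.10), Cd8b1 (12.16 to 13.03) and Rag1 (12.21 to 13.80) were high on every array, Rag2 read 7.17 to 8.49, and Ptcra ran from 6.58, on a knockout array, to 9.51, on an OT-2 array. In bulk RNA of this kind, fewer cells of a type and less RNA per cell cannot be told apart.

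Per1 was highest in the peptide OT-2 group. Its signal was 8.42, 8.67 and 8.48 on those 3 arrays, and 7.36, 7.62 and 7.45 on the OT-2 arrays. The arrays labelled deltaP read 8.08, 7.73 and 7.93, between these groups and overlapping neither. Wild type 1-3 read 7.49, 7.25 and 7.64, and the knockout read 7.86, 7.72 and 7.87. Wild type 4-6 read 7.20, 7.41 and 7.16, and VP16 read 7.27, 7.50 and 7.32. Ordered by mean, Per1 ran from wild type 4-6 (7.26 ± 0.14, SD, n = 3) through VP16 (7.36 ± 0.12), wild type 1-3 (7.46 ± 0.20), OT-2 (7.48 ± 0.13), knockout (7.82 ± 0.09) and deltaP (7.91 ± 0.18) to peptide OT-2 (8.52 ± 0.13). The 4 lowest groups overlapped their neighbours, as did knockout and deltaP, while OT-2 and knockout, and deltaP and peptide OT-2, lay apart by 0.34 and 0.61. The labels give no time of day for the harvest, with which a clock gene's level changes in many tissues.

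Tsc22d3 was also highest on average in the peptide OT-2 group, but its arrays disagreed. It read 8.27, 8.34 and 7.40 on the peptide OT-2 arrays, against 6.92, 6.98 and 6.98 on the OT-2 arrays. On the arrays labelled deltaP it read 8.40, 8.03 and 6.55, so that 2 of these matched the high peptide OT-2 arrays and the third lay below every OT-2 array. Wild type 1-3 read 6.80, 6.80 and 6.63, and the knockout read 6.10, 6.81 and 6.51. Wild type 4-6 read 7.70, 7.10 and 7.40, and VP16 read 7.93, 7.29 and 7.34. The order of means was knockout (6.47 ± 0.36, SD, n = 3), wild type 1-3 (6.74 ± 0.10), OT-2 (6.96 ± 0.03), wild type 4-6 (7.40 ± 0.30), VP16 (7.52 ± 0.36), deltaP (7.66 ± 0.98) and peptide OT-2 (8.00 ± 0.52). OT-2 lay apart from both wild-type sets, and each other pair of neighbours overlapped. The SD of 0.98 among the deltaP arrays was the largest of any group for the 3 genes.

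In log2 signal Pik3ip1 was highest in VP16, and it was higher in peptide OT-2 than in OT-2 as well. It read 10.24, 10.31 and 9.70 on the peptide OT-2 arrays and 9.38, 9.39 and 9.49 on the OT-2 arrays. The arrays labelled deltaP read 10.29, 9.87 and 9.53. Array 3 was the lowest of its group in both injected groups, as for Tsc22d3. Wild type 1-3 read 9.63, 9.55 and 9.73, and the knockout read 9.44, 9.49 and 9.62. Wild type 4-6 read 10.19, 9.98 and 10.14, and VP16 read 10.51, 10.63 and 10.53, above every other array of the series in log2 signal. The means ran from OT-2 (9.42 ± 0.06, SD, n = 3) through knockout (9.52 ± 0.10), wild type 1-3 (9.64 ± 0.09), deltaP (9.90 ± 0.38), peptide OT-2 (10.08 ± 0.34) and wild type 4-6 (10.10 ± 0.11) to VP16 (10.56 ± 0.06), and only VP16 lay apart from its neighbour.

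**Figure D1:**
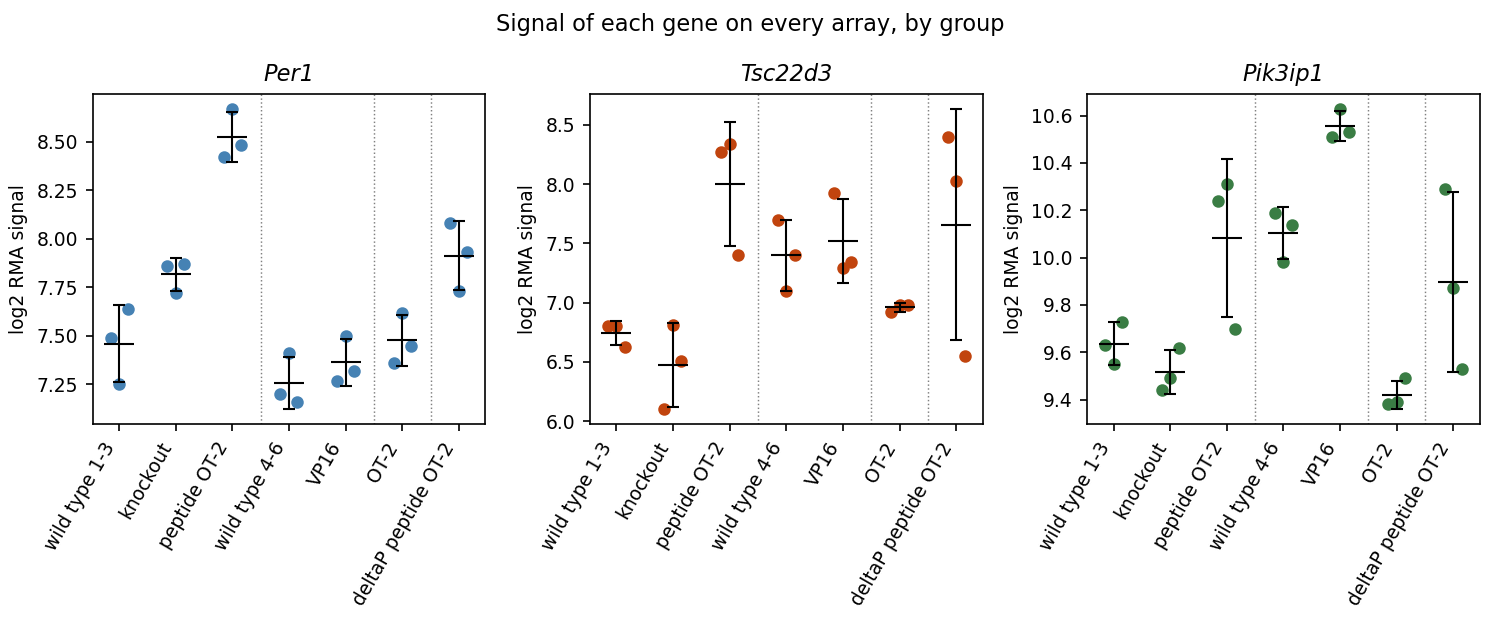
Log2 RMA signal (y axis, separate scale per gene) of Per1, Tsc22d3 and Pik3ip1 on each array (points) in 7 sets of 3 arrays (x axis); the horizontal bar is the mean, the error bar the SD, and dotted lines part the 4 sets of columns. Per1 is highest on the 3 peptide OT-2 arrays (8.42 to 8.67), and Tsc22d3 and Pik3ip1 are low on array 3 of both injected groups.

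Because the column sets differ in spread, the position of each gene among the 28921 probe sets of its own array was read as well. Per1 lay at percentiles 62.7 to 69.4 on the 6 wild-type arrays, 65.1 to 68.2 on OT-2, 79.0 to 81.9 on peptide OT-2 and 70.6 to 74.6 on the arrays labelled deltaP. Tsc22d3 lay at 60.2 to 61.0 on OT-2, 65.7 to 78.1 on peptide OT-2 and 57.2 to 78.3 on deltaP. Its wild-type sets stayed apart on this scale, at 56.7 to 59.8 and 62.1 to 68.3. Pik3ip1 lay at 88.2 to 89.1 on OT-2, 91.3 to 94.9 on peptide OT-2 and 89.8 to 94.5 on deltaP. On VP16 it lay at 94.1 to 94.5, so that on this scale VP16 did not lie above every injected array. The wild-type sets of Pik3ip1, 0.47 apart in log2 signal, covered the same percentiles, 90.6 to 92.0 and 90.8 to 92.1. The ranks thus keep the order of the OT-2 and peptide OT-2 groups for all 3 genes.

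All 3 genes were higher in OT-2 double-positive thymocytes after injection of agonist peptide than in uninjected OT-2. The groups lie in different column sets, so that injection and column set cannot be told apart in this comparison. Per1 was 1.05 ± 0.10 higher (log2 difference ± SE, 3 against 3 arrays; 2.07-fold, 95% interval 0.81 to 1.28, adjusted p = 0.00559 by limma over all probe sets). Tsc22d3 was 1.04 ± 0.23 higher (2.06-fold, 0.50 to 1.59, adjusted p = 0.0256) and Pik3ip1 0.66 ± 0.16 higher (1.58-fold, 0.29 to 1.04, adjusted p = 0.0318). The arrays of the groups did not overlap for any of the 3. Changes of this kind were common: 19.5% of all probe sets passed the threshold of 0.05 in this comparison, and 9.35% passed it as higher. By size of the rise, Per1 ranked 151, Tsc22d3 ranked 155 and Pik3ip1 ranked 690 from the top of 28921. The authors' deposited table lists all 3 as upregulated in its peptide comparison, Per1 at a fold of 2.02 and a q of 0%, Tsc22d3 at 2.11 and 1.44%, and Pik3ip1 at 1.64 and 2.86%. Per1 passed without any 1 of the 6 arrays. Tsc22d3 and Pik3ip1 lost the call without any 1 array other than peptide OT-2 array 3, and without that array they were 1.34 (adjusted p = 0.00636) and 0.86 (adjusted p = 0.0157) higher.

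Wild type 1-3 share a set of columns with the peptide OT-2 arrays, so that they give a second control, which differs from the injected group in the OT-2 receptor too. Against them Per1 was 1.07 ± 0.13 higher (adjusted p = 0.0054) and Tsc22d3 was 1.26 ± 0.23 higher (adjusted p = 0.0214), where 5.76% of probe sets passed. Pik3ip1 was 0.45 ± 0.17 higher, did not pass (adjusted p = 0.163) and overlapped, since peptide OT-2 array 3 (9.70) lay within the wild-type values. Without that array it was 0.64 higher (adjusted p = 0.0324), while Tsc22d3 kept its call only without that array, of 6 fits that left out 1 array.

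**Figure D2:**
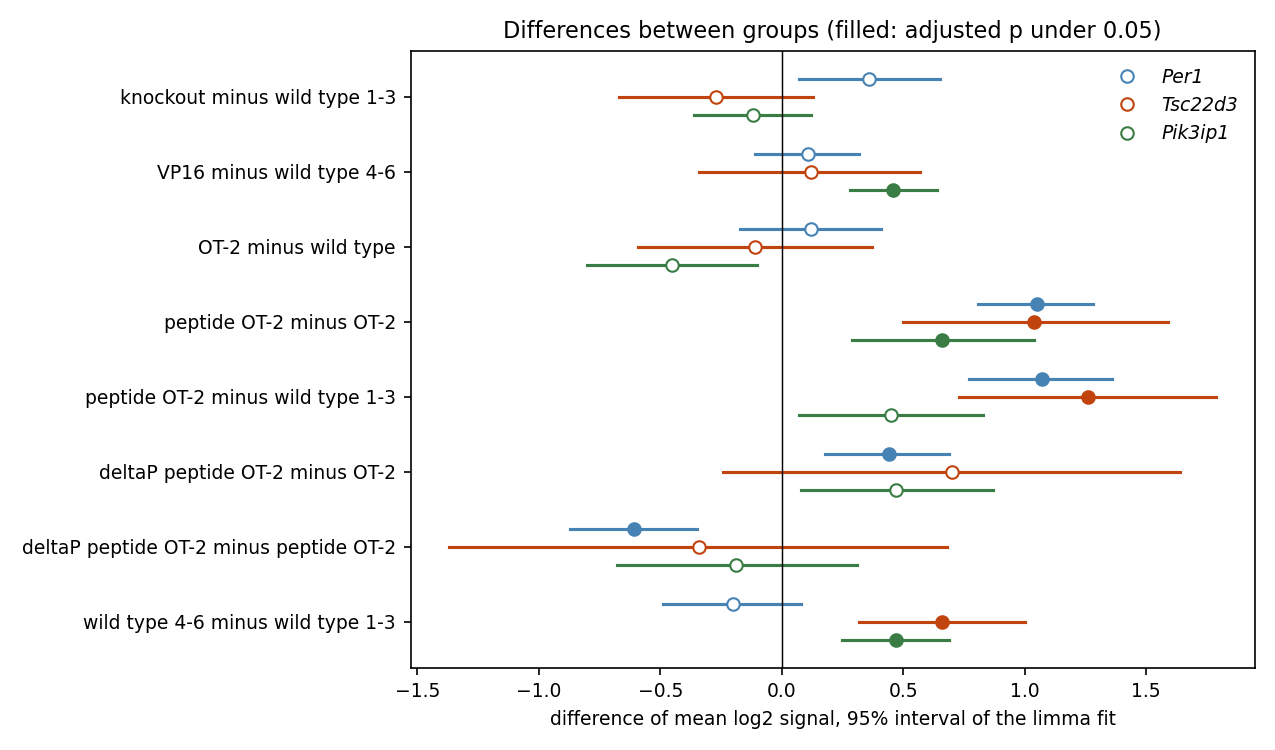
Difference of mean log2 signal (x axis) with its 95% interval for Per1, Tsc22d3 and Pik3ip1 in 8 comparisons (y axis, first group minus second); filled points have an adjusted p under 0.05. All 3 points are filled for peptide OT-2 minus OT-2 (1.05, 1.04 and 0.66), and Per1 alone is filled for deltaP minus peptide OT-2 (-0.61).

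The low reading of array 3 was set beside genes of T cell receptor signalling. On peptide OT-2 array 3 Nr4a1, the orphan nuclear receptor used as a measure of receptor signal strength, was highest of its group (11.65, 11.62 and 12.03, against 8.43 to 8.52 on OT-2). Gadd45b, a stress sensor, read 9.67, 10.09 and 10.19, and Bcl2l11, which encodes the death protein BIM, read 10.64, 10.49 and 10.56. Cd69, an early activation antigen, read 11.61, 11.50 and 11.24, and was thus lowest on array 3, as Tsc22d3 and Pik3ip1 were. Array 3 was lowest for 7 of 30 named receptor-response genes in this group and highest for 17, while over all 28921 probe sets it was lowest for 37.1% and highest for 10045. In the deltaP group array 3 was lowest for 12 of the 30 and highest for 6, and lowest for 30.8% of all probe sets. Tsc22d3 on array 3 was 0.90 below the mean of arrays 1 and 2, and 0.235% of all probe sets fell further; Pik3ip1 was 0.58 below (0.816% fell further) and Per1 0.06 below (39.6%). On deltaP array 3, Tsc22d3 fell by 1.66 (0.0657% of probe sets fell further) and Pik3ip1 fell by 0.55 (0.795%), and Per1 was 0.02 above. The arrays carry a number only, and what sets array 3 of either group apart was not tested.

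**Figure D3:**
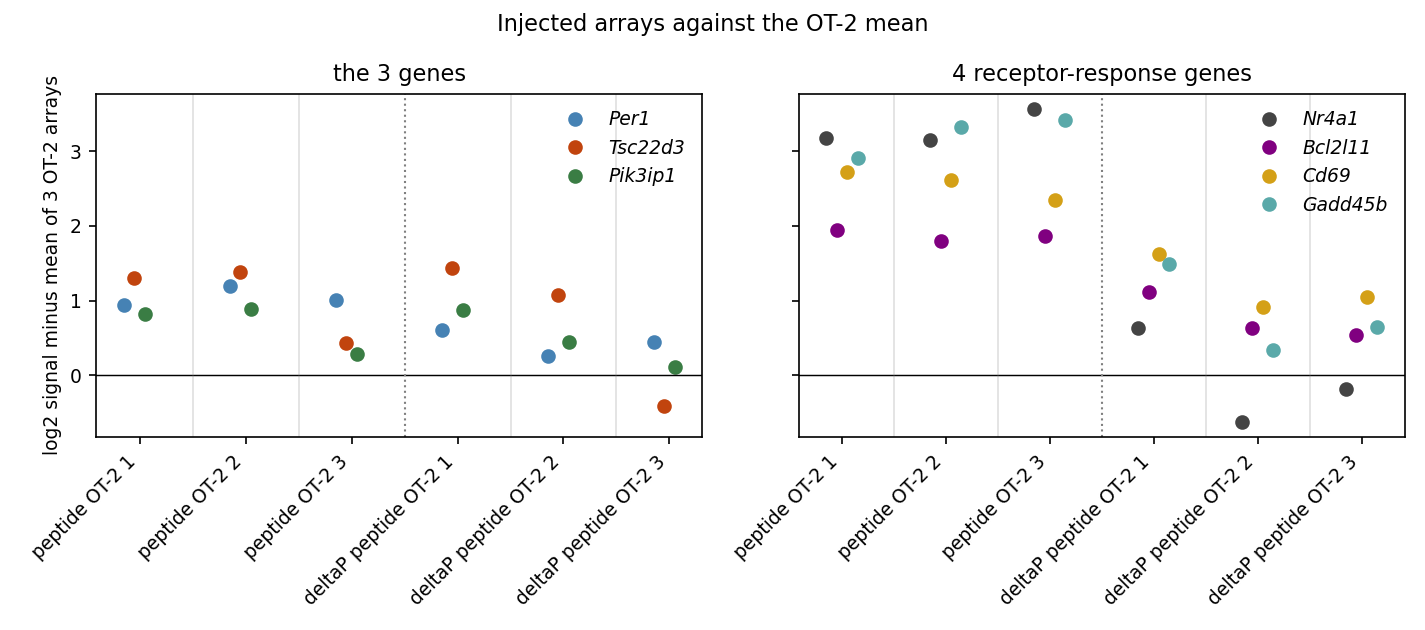
Log2 signal minus the mean of the 3 OT-2 arrays (y axis) on each of the 6 injected arrays (x axis) for Per1, Tsc22d3 and Pik3ip1 (left) and for Nr4a1, Bcl2l11, Cd69 and Gadd45b (right); the dotted line parts peptide OT-2 from deltaP arrays. Tsc22d3 and Pik3ip1 are lowest on array 3 of both groups. On peptide OT-2 array 3 Nr4a1 is highest of its group (log2 signal 12.03) and Cd69 is lowest (11.24).

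Other genes of the pathways were counted from lists of textbook members, limited to those the deposited tables name, which are genes the authors listed in at least 1 comparison, so that their counts are not independent evidence of a direction. Among all 2117 named genes, 32% passed after peptide, 229 higher and 448 lower. Of 36 glucocorticoid receptor targets 13 were named, the 3 genes among them. After peptide 8 were higher and 0 lower, with a median log2 difference of 0.65 where all probe sets had 0.00. Of the 10 without the 3 genes, 5 were higher and 0 lower, with a median of 0.42. Beside the 3 genes these were Bcl2l11 (1.87 ± 0.07, adjusted p = 0.000332), Gadd45b (3.22 ± 0.21, adjusted p = 0.00225), Klf13, a zinc-finger factor (0.65 ± 0.07, adjusted p = 0.00623), Nfkbia, the NF-kappaB inhibitor, and Socs1, a cytokine signal inhibitor. Bcl2l11, Gadd45b and Nfkbia are on the receptor-response list too. Of the 7 named genes on the glucocorticoid list alone, 2 were higher (Klf13 and Socs1) and 5 did not pass (Bmf, Errfi1, Fkbp5, Il6ra and Itpr1), with a median of 0.27. Against wild type 1-3 the same 7 genes gave 1 higher (Fkbp5) and 2 lower (Itpr1 and Socs1), with a median of -0.20. Among all 2117 named genes 32.5% passed against wild type 1-3, 383 higher and 306 lower. Socs1 turned direction with the control, being 0.47 ± 0.10 higher than in OT-2 (adjusted p = 0.0219) and -0.85 ± 0.13 from wild type 1-3 (adjusted p = 0.0116), and Klf13 differed from wild type 1-3 by -0.68 ± 0.19 (adjusted p = 0.0812). Bcl2l11, Gadd45b and Nfkbia were higher against both controls. Fkbp5, a chaperone partner of the receptor and a target of it in many tissues, was named after its values were seen. It read 11.11, 11.83 and 11.16 after peptide and 11.07, 11.19 and 11.02 on OT-2, which overlap (0.27 ± 0.19, adjusted p = 0.321), and it was 0.82 ± 0.19 higher than in wild type 1-3 (adjusted p = 0.0424).

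Most named receptor-response genes rose. Of 38 listed, 30 were named, and 24 were higher and 0 lower after peptide, with a median of 1.04, close to the differences of Per1 and Tsc22d3. Nr4a1 was 3.30 ± 0.12 higher (adjusted p = 0.0003) and Cd69, an early activation antigen, 2.57 ± 0.12 higher (adjusted p = 0.000814). Of 11 named FoxO targets 4 were higher and 0 lower (median 0.08): Tsc22d3, Pik3ip1, Bcl2l11 and Ccnd2, a cyclin (1.40 ± 0.38, adjusted p = 0.0425). Without Tsc22d3 and Pik3ip1, 2 of 9 were higher, with a median of -0.05. Rag1 and Rag2, which cut receptor genes and are FoxO targets as well, were 0.45 and 0.44 lower and did not pass. Of 11 named genes of PI3 kinase and AKT signalling 5 were higher and 0 lower (median 0.33), among them Pik3ip1, Phlpp1, Inpp5d and Rasa2. Without Pik3ip1, 4 of 10 were higher (median 0.31). Phlpp1, an AKT phosphatase, was 0.50 ± 0.13 higher than in OT-2 (adjusted p = 0.0355), and Rasa2, a RAS GTPase activator, 0.48 ± 0.10 higher (adjusted p = 0.0235). Against wild type 1-3, 24 receptor-response genes were higher and 0 lower (median 1.25), 4 FoxO targets were higher and 2 lower, and 1 PI3 kinase and AKT gene was higher and 1 lower. Phlpp1 (0.33, adjusted p = 0.43) and Rasa2 (0.48, adjusted p = 0.0613) did not pass there. Of 4 named clock genes 2 were higher than in OT-2, Per1 and Npas2, a partner of BMAL1 (0.52 ± 0.13, adjusted p = 0.0353).

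Markers of other cells were few among the named genes. Cd79b, of the B cell receptor, was 0.54 ± 0.08 lower after peptide than in OT-2 (adjusted p = 0.0102), and Blk, a kinase and the other of 2 named B cell markers, read 6.50, 6.52 and 7.95 after peptide against 6.07, 6.39 and 6.49 on OT-2 (0.67 ± 0.37, adjusted p = 0.228). Blk was thus high on peptide OT-2 array 3, and neither marker passed against wild type 1-3 (Cd79b 0.23 and Blk 0.74 higher). Itgam, of myeloid cells, was 0.13 lower and did not pass (adjusted p = 0.241), 1 of 7 listed being named, and red cell and thymic epithelial markers had 0 named. The mature T cell marker Ccr7 read 0.10 higher than in OT-2 and did not pass (adjusted p = 0.714), and was 0.99 ± 0.15 higher than in wild type 1-3 (adjusted p = 0.011). Of the double-positive markers, Ptcra, the pre-receptor alpha chain, was 1.01 ± 0.13 lower (adjusted p = 0.00799), and the 4 others did not pass. Against wild type 1-3 these markers gave 1 higher and 3 lower, with a median of -0.63. Ptcra turned direction there (0.56 ± 0.12 higher, adjusted p = 0.0377), while Cd4 (-0.68, adjusted p = 0.039), Cd8b1 (-0.48, adjusted p = 0.0247) and Rag1 (-0.84, adjusted p = 0.00891) were lower. The part of cell composition in the change of the 3 genes was not tested.

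The arrays labelled deltaP were compared with peptide OT-2 for what remained of the rise. Per1 was lower on the deltaP arrays by 0.61 ± 0.12 (log2, 3 against 3 arrays, adjusted p = 0.0163), with no overlap. Tsc22d3 differed by -0.34 ± 0.45 (95% interval -1.37 to 0.68, adjusted p = 0.614) and Pik3ip1 by -0.19 ± 0.22 (-0.68 to 0.31, adjusted p = 0.566), and both overlapped. The interval of Tsc22d3 holds both no difference and a fall as large as its rise after peptide, and that of Pik3ip1 holds no difference and a fall of the size of its rise. This comparison crosses column sets. In it 15% of all probe sets passed and 12.9% passed as lower, with a median over all probe sets of -0.10. Per1 lost its call without deltaP array 2 (adjusted p = 0.0539) or array 3 (adjusted p = 0.0567). Without deltaP array 3, Tsc22d3 was 0.21 higher than in peptide OT-2 and Pik3ip1 differed by 0.00, neither past the threshold. With arrays centred on their medians, Pik3ip1 differed by 0.01, and the called probe sets split 3634 higher to 1016 lower in place of 612 to 3736.

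Most named receptor-response genes were lower on the deltaP arrays than in peptide OT-2. Of 30 named, 18 were lower and 1 was higher, with a median of -0.83. Among all 2117 named genes 20.4% passed in this comparison, 152 higher and 279 lower. Nr4a1 differed by -3.36 ± 0.28 (adjusted p = 0.00284) and read 9.10, 7.85 and 8.28 on the deltaP arrays, around the OT-2 values. Gadd45b differed by -2.39 ± 0.27 (adjusted p = 0.00613), Cd69 by -1.37 ± 0.18 (adjusted p = 0.00757) and Bcl2l11 by -1.10 ± 0.15 (adjusted p = 0.00746). Of the 13 named glucocorticoid targets 4 were lower, Per1, Bcl2l11, Gadd45b and Il6ra, and 0 were higher, with a median of -0.20. Without the 3 genes, 3 of 10 were lower (median -0.18). Klf13 differed by -0.17 ± 0.09 (adjusted p = 0.241) and Fkbp5 by -0.36 ± 0.24 (adjusted p = 0.328). Npas2 differed by -0.61 ± 0.12 (adjusted p = 0.0196), while Nr1d2, a nuclear receptor that represses clock genes, was 0.58 ± 0.09 higher (adjusted p = 0.00953) and Clock, a partner of BMAL1, 0.31 ± 0.10 higher without passing (adjusted p = 0.0785), so that with Per1 the 4 named clock genes gave 1 higher and 2 lower. Whether the 3 genes differ from the receptor-response genes in this respect was not tested.

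Set against uninjected OT-2, the deltaP arrays were 0.44 ± 0.11 higher for Per1 (adjusted p = 0.0335, arrays apart), 0.70 ± 0.41 higher for Tsc22d3 (adjusted p = 0.239, arrays overlapping) and 0.47 ± 0.17 higher for Pik3ip1 (adjusted p = 0.0848, arrays apart). This comparison shares the OT-2 arrays with that of peptide OT-2, and 19% of probe sets passed in it. The call of Per1 was lost in 5 of 6 fits that left out 1 array, deltaP array 2 being the exception (0.53, adjusted p = 0.0442). Without deltaP array 3, Tsc22d3 was 1.25 higher (adjusted p = 0.0239) and Pik3ip1 0.66 higher (adjusted p = 0.049), and both passed. Of the receptor-response genes beside them, Nr4a1 differed from OT-2 by -0.06 ± 0.27 (adjusted p = 0.889), while Cd69 was 1.20 ± 0.18 higher (adjusted p = 0.00907) and Bcl2l11 0.76 ± 0.14 higher (adjusted p = 0.0163). No OT-2 deltaP group without injection was analysed here, so that the transgene, the injection and the column set cannot be told apart in this contrast.

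**Figure D4:**
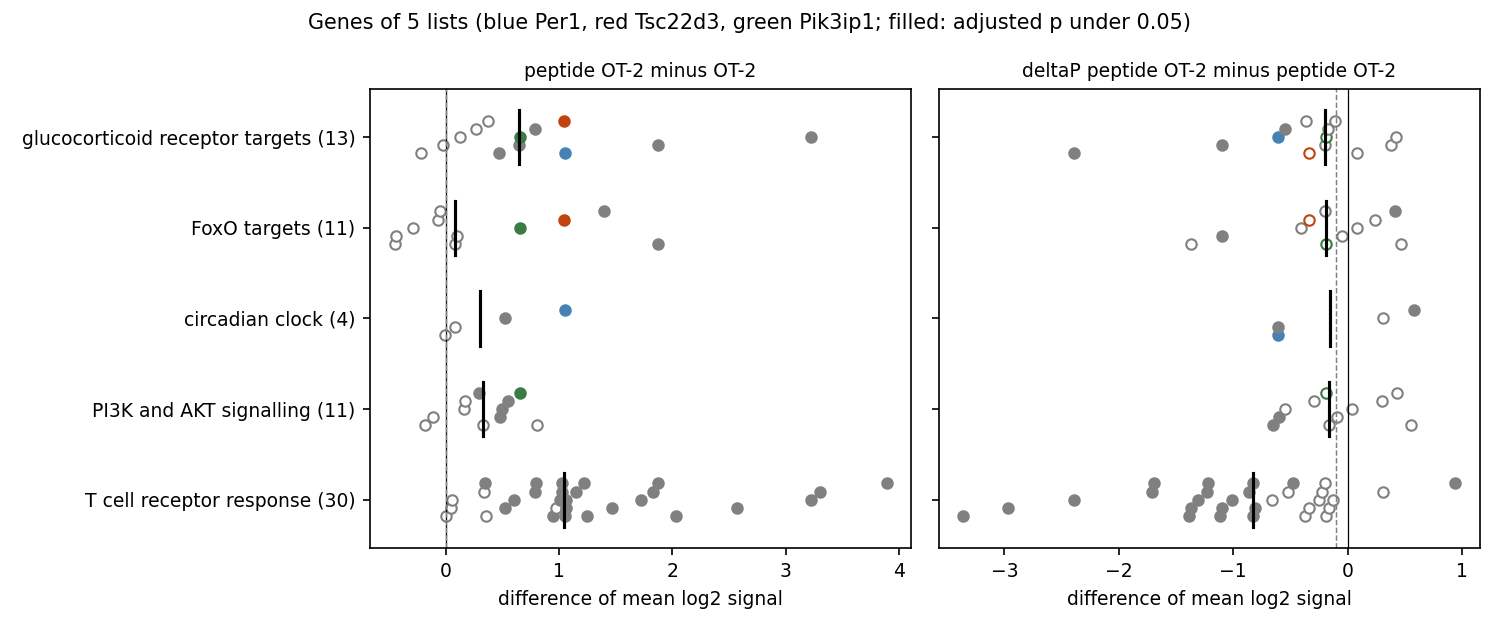
Difference of mean log2 signal (x axis) of the named genes on 5 lists (y axis, number of named genes in brackets) for peptide OT-2 minus OT-2 (left) and deltaP minus peptide OT-2 (right); filled points passed the adjusted p of 0.05, thick bars are list medians and the dashed line is the median of all probe sets. The receptor-response median is 1.04 on the left and -0.83 on the right, and Tsc22d3 and Pik3ip1 are unfilled on the right.

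The arrays labelled HDAC7 knockout gave no call for any of the 3 genes against wild type 1-3, where 0.802% of probe sets passed. Per1 was 0.36 ± 0.13 higher in the knockout than in wild type 1-3 (1.28-fold), with all 3 knockout arrays above all 3 wild-type arrays, and did not pass (unadjusted p = 0.0202, which makes it the 1 of the 3 genes under 0.05, as were 6.96% of all probe sets; adjusted p = 0.517). Tsc22d3 differed by -0.27 ± 0.17 (adjusted p = 0.895) and Pik3ip1 by -0.12 ± 0.11 (adjusted p = 0.954), and both overlapped. Of the 13 named glucocorticoid targets 5 were lower in the knockout (Bmf, Errfi1, Itpr1, Nfkbia and Socs1) and 0 higher, with a median of -0.50, where 96 of the 2117 named genes were lower. Without the 3 genes, 5 of 10 were lower (median -0.7). Of 30 named receptor-response genes 5 were lower and 1 higher. Phlpp1 was 1.59 ± 0.19 higher (adjusted p = 0.00895) and Itgam 0.89 ± 0.10 higher (adjusted p = 0.00767).

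In the HDAC7-VP16 mice Pik3ip1 was the gene of the 3 that rose. It was 0.46 ± 0.08 higher than in wild type 4-6 (1.37-fold, adjusted p = 0.0407), with no overlap of arrays, where 1.42% of probe sets passed (411, and 35 without wild type array 5); the authors' deposited table lists it as upregulated at a fold of 1.37 and a q of 1.44%. Per1 was 0.11 higher (adjusted p = 0.622) and Tsc22d3 0.12 higher (adjusted p = 0.819), and neither passed. The call of Pik3ip1 held in 1 of 6 fits that left out 1 array, that without VP16 array 1, and was lost when the spread was taken over all 21 arrays (adjusted p = 0.16) or with all 6 wild-type arrays as control (0.69, adjusted p = 0.177). Pik3ip1 was the 1 call among 11 named PI3 kinase and AKT genes, where 14.6% of all 2117 named genes passed. The VP16 and knockout effects on it differed by 0.58 ± 0.13 and the difference did not pass (adjusted p = 0.0579), where 0.799% of probe sets passed; for Per1 and Tsc22d3 that difference was -0.25 and 0.39 (adjusted p = 0.596 and 0.671).

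The OT-2 receptor alone, compared with all 6 wild-type arrays, gave no call either, with 2.31% of probe sets past the threshold. Since the OT-2 arrays form a column set of their own, receptor and column set cannot be told apart in this comparison. Pik3ip1 was lower by 0.45 ± 0.16 (adjusted p = 0.175), with every OT-2 array below every wild-type array, and its unadjusted p of 0.0168 was the 1 under 0.05 among the 3 genes, as were those of 17.2% of all probe sets. The authors' deposited table lists it as downregulated at a fold of 0.764 and a q of 1.77%. After quantile normalization the difference was -0.36 (adjusted p = 0.0424), against wild type 4-6 alone it was -0.68 (adjusted p = 0.000505), and against wild type 1-3 alone it was -0.21 and did not pass (adjusted p = 0.102). Per1 differed by 0.12 (adjusted p = 0.705) and Tsc22d3 by -0.11 (adjusted p = 0.852). The wild-type sets themselves differed: wild type 4-6 were 0.66 ± 0.15 higher for Tsc22d3 (adjusted p = 0.00654) and 0.47 ± 0.10 higher for Pik3ip1 (adjusted p = 0.00431), and Per1 differed by -0.20 (adjusted p = 0.193). After quantile normalization the Pik3ip1 difference was 0.07 (adjusted p = 0.589). Tsc22d3 in OT-2 was 0.22 above wild type 1-3 and 0.44 below wild type 4-6 (log2 difference -0.44, adjusted p = 0.0285), so that the direction of the OT-2 difference turned with the wild-type set.

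Likeness between genes was described over the 9 arrays of 1 column set, which fall into 3 groups, so that a correlation there follows the difference of the peptide OT-2 arrays from the rest. Tsc22d3 and Pik3ip1 correlated at r = 0.931 (0.706 over all 21 arrays), Per1 and Tsc22d3 at 0.761 (0.324) and Per1 and Pik3ip1 at 0.738 (0.002). The named genes most like Per1 were Elp3 (r = 0.966), Wdr59 (0.957), Tnip2 (0.955), Cobll1 (0.952) and C2cd5 (0.95). Those most like Tsc22d3 were Rassf5 (0.975), Angpt1 (0.968), Ier2 (0.957), Rpl41 (0.956) and Bccip (0.955). For Pik3ip1 they were Retnla (0.955), Iscu (0.953), Mctp2 (0.944), Tmem82 (0.944) and Rpl7a-ps10 (0.935). The 9 arrays hold no OT-2 array, and many of these genes did not rise from OT-2 to peptide OT-2. In the orders given, that difference was -0.48, -0.02, 0.66, 0.70 and 0.39 for the genes like Per1. It was -0.16, -0.55, 0.60, -0.34 and -0.24 for those like Tsc22d3. For those like Pik3ip1 it was 0.51, -0.28, -0.17, -0.09 and -0.40. Over all 21 arrays Ier2, an immediate-early gene, ranked 2 for Tsc22d3 (r = 0.799) and Retnla ranked 6 for Pik3ip1 (0.766), while Elp3 stood at -0.219 to Per1 and Tmem82 at -0.224 to Pik3ip1.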

How the data were processed

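Per the labels, total RNA of sorted thymocytes was hybridized to Affymetrix Mouse Gene 1.0 ST arrays. The deposited values are log2 RMA signals per probe set; RMA and Affymetrix Expression Console are given by the submitters' processing notes, their versions not given in the sources used here. According to the design text, arrays were normalized in groups by comparison. The authors' tables give, per the file headers, a fold as a ratio, a score and a q-value in percent; these were copied and not recomputed.

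Of 35556 rows, 6612 low-numbered rows were taken as control probe sets, among which 0 rows of the authors' tables lie, and 23 second probe sets of a gene were dropped. Names came from the authors' tables through accessions or symbols matched to RefSeq, so that 26804 tested probe sets stayed unnamed. Each comparison was fitted in limma 3.58.1 (lmFit and eBayes, R 4.3.3) on its own arrays over all 28921 probe sets, with Benjamini-Hochberg adjustment and a threshold of 0.05, and the fit was tested on simulated data. Figures were made with matplotlib 3.10.9 under python 3.11.15. With 3 arrays a group, the number of arrays limits the precision; replicates are called biological in the design text. Genes named were the 3 genes, up to 4 members of each list by adjusted p after peptide, the 5 genes most like each of the 3, Hdac7 and cell markers; Fkbp5, Nfkbia, Socs1, Inpp5d, Bmf, Errfi1, Il6ra, Itpr1 and Rag2 were named after their values were seen, as were those in counts of 5 or fewer. The members and lists were chosen with earlier results of these data known. Knockout and wild type 1-3 deviations correlated between equal numbers at 0.42, 0.26 and 0.25, while in no other comparison did every pair exceed 0.1. The knockout values in the main text come from the unpaired fit, which called 232 probe sets. Equal numbers were taken as pairs only in an alternative fit with replicate blocks, which called 293. Alternatives were quantile normalization, median centring, a filter on dim probe sets, other sets of arrays, blocks, and leaving out each array. Some listed genes are not reported here.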

Additional observations from a re-analysis of the deposited data

Results flagged for a closer look

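Effects differed between array sets or groups for 3 results by a test of the difference. The OT-2 difference of Tsc22d3 changed by 0.66 (adjusted p = 0.00654, limma) and that of Pik3ip1 by 0.47 (adjusted p = 0.00431) according to whether wild type 1-3 or wild type 4-6 served as control, with the wild-type arrays apart in both cases. Such differences were common, as 56.9% of all probe sets passed between the wild-type sets. The change of Per1 from uninjected OT-2 was smaller with the deltaP label than without it, a difference of -0.61 (adjusted p = 0.0163, arrays apart in 3 of 3). In that comparison 15% of all probe sets passed. Among the 6 wild-type arrays, no array stood far from the others for any of the 3 genes; the largest gap was 0.312 of the range, for Per1, below Dixon's critical value.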

How the results depend on the processing

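For the 27 differences of the 3 genes, 125 of 138 other settings kept direction and side of the threshold, as did 155 of 189 fits without 1 array. Most of these differences had no call to lose, so that the totals say little about the calls. Of the fits without 1 array, 27 lost a call, 3 gained a call and 4 turned direction. Of the other settings, 5 lost a call, 5 gained a call and 3 turned direction. The cause of each change was not tested.

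Over the spread of all 21 arrays, Pik3ip1 passed in OT-2 (-0.45, adjusted p = 0.0187) and in deltaP against OT-2 (0.47, 0.0403) and lost its VP16 call (0.46, 0.16), and Tsc22d3 lost its call between wild-type sets (0.66, 0.0988). With all 6 wild-type arrays Pik3ip1 in VP16 was 0.69 (0.177). After quantile normalization Pik3ip1 in OT-2 was -0.36 (0.0424) and between wild-type sets 0.07 (0.589). Median centring turned Pik3ip1 in deltaP against peptide OT-2 to 0.01. For OT-2, Tsc22d3 was 0.22 against wild type 1-3 alone and -0.44 against 4-6 alone (0.0285), and Pik3ip1 was -0.21 (0.102) and -0.68.

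When replicate numbers formed a block, the paired knockout comparison kept all 3 genes uncalled (Per1 0.36, adjusted p = 0.29; Tsc22d3 -0.27, 0.685; Pik3ip1 -0.12, 0.822). Elsewhere the block removed the Per1 call in deltaP against OT-2 (0.44, 0.0535), with wild type 1-3 only it gave Tsc22d3 in OT-2 as 0.22, and it changed no other call. A random block by wild-type set (correlation 0.749) gave adjusted p = 1.0 for OT-2.

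Without 1 array, after peptide against OT-2, Tsc22d3 ran from 0.87 to 1.34 and Pik3ip1 from 0.55 to 0.86, and against wild type 1-3 from 1.09 to 1.56 and from 0.33 to 0.64. In deltaP against peptide OT-2, Per1 ran from -0.69 to -0.52, Tsc22d3 from -0.71 to 0.21 and Pik3ip1 from -0.38 to 0.00. In deltaP against OT-2, Per1 ran from 0.35 to 0.53, Tsc22d3 from 0.33 to 1.25 and Pik3ip1 from 0.28 to 0.66. In VP16, Pik3ip1 ran from 0.40 to 0.50 and Tsc22d3 from -0.09 to 0.27; in OT-2, Tsc22d3 ran from -0.20 to 0.02.

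Called probe sets after quantile normalization numbered 1452 in OT-2 (667 as deposited), 3723 after peptide (5629), 846 in deltaP against peptide (4348), 2948 against OT-2 (5489; 3230 after centring) and 10609 between wild-type sets (16468); without 1 array, they numbered 745 to 4651 after peptide, 430 to 1381 against wild type 1-3 (1667), 1091 to 3639 in deltaP against peptide, 1134 to 5210 against OT-2, 51 to 671 in OT-2 (lowest without OT-2 array 1), 35 to 790 in VP16 (lowest without wild type array 5), 107 to 155 in the knockout (232) and 93 to 399 between VP16 and knockout effects (231). Over 21 arrays the likeness of Elp3 to Per1 was -0.219 and of Tmem82 to Pik3ip1 -0.224. The mean of a gene's probe sets could not be used, since each gene had 1.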
